A study of Mus musculus with 18 samples.

Results

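The genes described here are those of the constant parts of mouse antibodies: the heavy chain genes Ighm, Ighg1, Ighg2b, Ighg2c, Ighg3 and Igha, the light chain genes Igkc, Iglc1 and Iglc2, and Jchain. They were taken by gene symbol, and each of these 10 of the 52636 annotated genes was found on 1 row of every library. The set was selected on levels of these genes already seen in these libraries, by tissue and genotype, so its levels are a description and no test of a member is independent support. RNA was sequenced from 3 tissues (testis, brain and liver) of C57BL/6 males, adults of 8 weeks that were either wild type (WT) or knockout for Pcgf6 (KO), with 3 libraries for each genotype in each tissue and 18 libraries in all. WT libraries are numbered 1 to 3 and KO libraries 4 to 6 in every tissue. Pcgf6 encodes a Polycomb group protein that belongs to a repressive chromatin complex. The labels do not give the allele, the deleted part of the gene, or whether libraries of a group come from separate animals, so p-values measure the spread between these libraries, which may be technical.

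An antibody consists of paired heavy and light chains. The constant gene of the heavy chain sets its class: Ighm gives IgM, the class that naive B cells carry at their surface, and the Ighg genes and Igha give IgG and IgA after class switching in activated B cells. A light chain uses either the kappa constant gene Igkc or a lambda constant gene (Iglc), and mice use kappa far more often. Jchain encodes the small protein that joins IgM or IgA units into polymers. Plasma cells, the end stage of B cell differentiation, transcribe these genes at very high levels, so a few such cells can be visible in the RNA of a whole organ.

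Reference sequence is shown for the genes on which the results turn, 120 bases each from the mm10 (GRCm38) build, 5′ to 3′ on the coding strand. Ighm (minus strand, chr12:113422611-113422730) and Igkc (plus strand, chr6:70726435-70726554) are the most abundant heavy and light chain genes, and the stretches open their first constant exon.
Ighm: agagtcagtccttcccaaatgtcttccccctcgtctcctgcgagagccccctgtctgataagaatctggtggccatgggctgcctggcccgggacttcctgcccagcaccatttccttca
Igkc: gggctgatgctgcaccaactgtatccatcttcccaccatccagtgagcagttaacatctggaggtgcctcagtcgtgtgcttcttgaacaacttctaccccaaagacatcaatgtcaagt
Ighg2c (minus strand, chr12:113288813-113288932) and Ighg2b (minus strand, chr12:113307814-113307933) are close copies, shown because Ighg2c carried many more brain reads. Capitals mark the 13 bases at which the pair differ in this stretch.
Ighg2c: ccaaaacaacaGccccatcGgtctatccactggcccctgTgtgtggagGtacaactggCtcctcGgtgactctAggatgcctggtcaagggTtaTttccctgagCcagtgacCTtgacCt
Ighg2b: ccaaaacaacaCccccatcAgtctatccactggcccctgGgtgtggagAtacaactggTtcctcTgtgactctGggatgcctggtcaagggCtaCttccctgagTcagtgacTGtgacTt
Over the whole first exon 36 of 291 bases differed, and 5.49% of the 50-base stretches of Ighg2c also occurred in Ighg2b. Ighg1 was as close to Ighg2c over that exon, with 35 of 291 bases different. No 50-base stretch of Ighm, Igkc, Igha, Iglc1 or Jchain transcripts occurred in a transcript of another annotated gene on the same strand. Iglc2 shared 7.65% of its stretches with Iglc3, so the split of reads between those 2 lambda genes is uncertain. Igkc lies within the noncoding gene Gm30211, which had at most 2 reads in a library, and Iglc1 overlaps 2010309G21Rik, which had at most 4. The strand setting of the counting is not given in the sources used here.

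Library totals ran from 18990130 to 23529098 reads. Pcgf6 reads remained in the KO libraries of every tissue. Liver KO libraries had 39 to 70 against 131 to 177 in WT, brain KO libraries 173 to 250 against 267 to 303, and testis KO libraries 496 to 506 against 1031 to 1141. Its log2 change was -1.35 in liver, -0.34 in brain and -1.06 in testis, with Benjamini-Hochberg adjusted limma p of 0.485, 1.00 and 0.0638. Hepatocyte, neuron and glia, and male germ cell genes were each highest in the labelled tissue. A pair of WT testis libraries stood apart through epididymis genes: Crisp1, a secreted epididymal protein gene, had 4590 reads in WT 3 and 699 in WT 2, against 1 to 71 in the other testis libraries. WT 3 also had the highest red blood cell sum, 141 FPKM against 21.3 to 34.9 in the other testis libraries. FPKM, reads per kilobase of gene scaled to library size by the authors, is the unit of level throughout.

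The members together took 54 to 220 reads per liver library, 156 to 437 per brain library and 61 to 170 per testis library. Most of these reads came from Ighm. It supplied 74.5% of heavy chain constant reads in liver (430 of 577, exact 95% interval 70.8 to 78.0), 87.8% in brain (1508 of 1717, 86.2 to 89.3) and 84.0% in testis (310 of 369, 79.9 to 87.6). The intervals cover counting error only, and heavy chain totals include Ighd and Ighe, the IgD and IgE constant genes. The other heavy chain genes differed by tissue. In liver the most reads after Ighm were on Ighd, with 65 of 577, ahead of Igha with 44. Igha made up 7.63% of heavy chain reads in liver (5.60 to 10.1) and 0.641% in brain (0.320 to 1.14), while Ighg2c made up 172 of 1717 heavy chain reads in brain (8.64 to 11.5%) and 1.56% in liver (0.716 to 2.94).

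**Figure D1:**
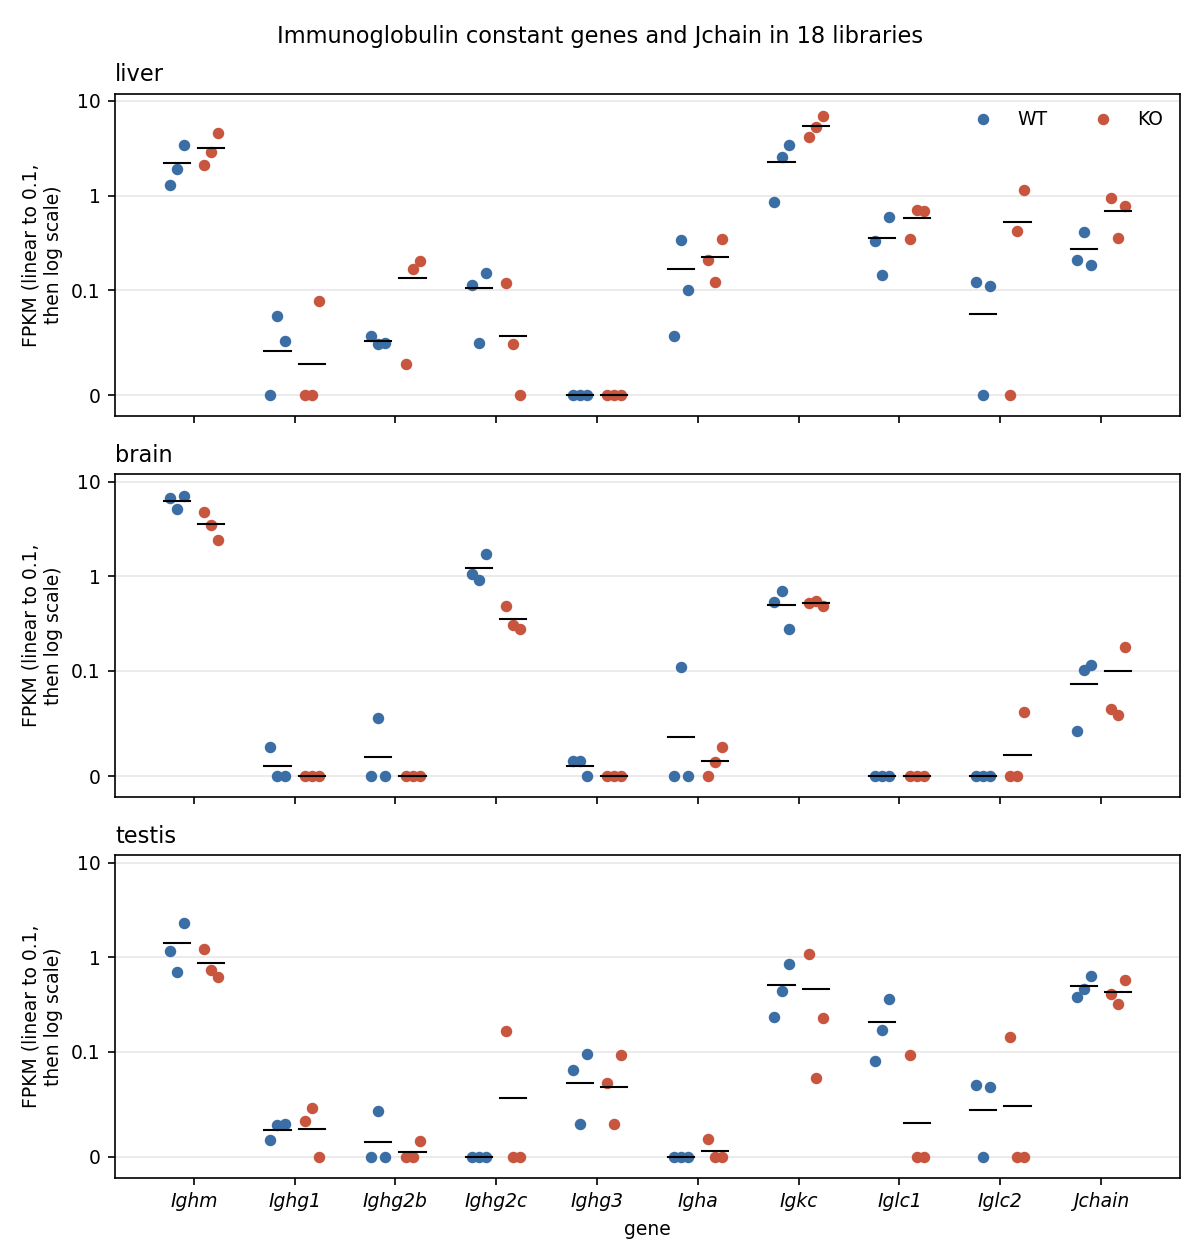
FPKM of the 10 genes in each library, with 1 panel per tissue, WT in blue, KO in red and a bar at the mean of 3 libraries; the axis is linear to 0.1 and logarithmic above. Ighm is detected in all 18 libraries, Ighg2c stands out only in brain, and Igkc has its highest mean in liver.

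Ighm had its highest WT level in brain. The WT means were 6.31 ± 1.01 FPKM (SD, n = 3) in brain, 2.21 ± 1.12 in liver and 1.40 ± 0.835 in testis. All WT brain libraries lay above all WT liver and testis libraries, and the ranges of liver and testis overlapped. Of all genes tested, 49.7% had every WT liver library below every WT brain library and 36.8% every WT testis library below every WT brain library. In limma with Benjamini-Hochberg adjustment over all genes tested, WT Ighm was lower in liver than in brain (log2 -1.57 ± 0.34 SE, adjusted p = 0.00408) and lower in testis than in brain (-2.23 ± 0.38, adjusted p = 0.00101). In KO libraries brain and liver overlapped, with Ighm means of 3.57 FPKM in brain, 3.19 in liver and 0.859 in testis. WT testis and liver did not pass the test (-0.67 ± 0.49, adjusted p = 0.236). That last difference changed sign, to 0.02 and 0.22, when libraries were scaled by their total or to a fixed sum.

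Ighg2c followed the same order more steeply, with 1.24 ± 0.440 FPKM in WT brain (SD, n = 3), 0.105 ± 0.0518 in WT liver and 0 reads in all 3 WT testis libraries. The WT liver libraries held 2, 1 and 3 reads, at or under the floor of 3 reads, so no fold is given for them. The WT brain mean was at least 13.5-fold the level of 3 reads per testis library. The limma test gave a log2 change of -2.69 ± 0.29 for liver minus brain (adjusted p = 0.000111) and -3.69 ± 0.23 for testis minus brain (adjusted p = 3.76e-06), and both values depend on the added 0.1 FPKM. Ighg2c entered these tests only through its reads in brain, the tissue where it is high, so it had to differ and the tests add no support. Over the 6 brain libraries the close copies Ighg2b and Ighg1 had 4 and 2 reads, against 172 for Ighg2c.

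Igkc was instead highest in WT liver. Its WT mean was 2.28 ± 1.30 FPKM (SD, n = 3) in liver, 0.503 ± 0.211 in brain and 0.506 ± 0.312 in testis. In the deposited FPKM every WT liver library was above every WT brain library, as for 36.1% of all genes tested. This separation was lost under scaling by the library total. There liver WT 1, with 6 Igkc reads, lay below brain WT 1 and WT 2, with 8 and 10. In FPKM, WT 3 of testis, at 0.846, came close to WT 1 of liver, at 0.850. WT Igkc was higher in liver than in brain (log2 1.85 ± 0.53, limma adjusted p = 0.0145), a call that was lost under scaling by the total (1.10, adjusted p = 0.0916), under a fixed sum (0.53, adjusted p = 0.415) and without brain WT 3 (1.54, adjusted p = 0.0626). It was lower in testis than in liver (-1.90 ± 0.58, limma adjusted p = 0.0174). With the replicate number as a block this fell to an adjusted p of 0.000435, while scaling by the total gave -1.24 (adjusted p = 0.0903) and a fixed sum -1.14 (adjusted p = 0.144). The testis minus liver call was also lost without liver WT 2, testis WT 1 or testis WT 2 (adjusted p = 0.0526, 0.0750 and 0.0623).

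Jchain reached its highest WT mean in testis, 0.492 ± 0.130 FPKM (SD, n = 3), against 0.271 ± 0.126 in liver and 0.0873 ± 0.0390 in brain. Testis libraries of both genotypes held 20 to 39 Jchain reads beside 1 to 13 Igkc reads. For WT testis minus brain the Jchain log2 difference was 1.66 ± 0.23 (limma adjusted p = 0.000341). The gene entered that test only through its testis reads, since WT brain libraries had 3, 7 and 8, so the test adds no support. For testis minus liver it was 0.71 ± 0.28 (limma adjusted p = 0.0473), and the adjusted p was 0.0563 with the replicate number as a block. Scaling by the total gave 1.23 (adjusted p = 0.00490) and a fixed sum 1.62 (adjusted p = 0.00317). In the deposited values it also lost the call without any single library other than liver WT 2, with adjusted p up to 0.156.

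These tissue tests must be read against the background. Of all genes tested, 87.7% were called between WT testis and liver, 86.1% between testis and brain and 83.9% between liver and brain, against 2 of 3, 3 of 3 and 3 of 3 members that passed the filter on low reads, some of them only through the tissue where they are high. The choice of scaling also shifted all genes: the median log2 change over all genes was -0.32 for liver minus brain in the deposited values, -1.07 by library total and -1.80 at a fixed sum, and 1.06, 1.62 and 2.01 for testis minus liver. For testis minus brain it was 0.42, 0.33 and -0.12. Relative to those medians, Igkc stood 2.17, 2.17 and 2.33 higher in liver than in brain, and Ighm 1.25, 1.30 and 1.29 lower on the log2 scale. For testis minus liver, Jchain turned sign relative to the median, to -0.35, -0.39 and -0.38, and Igkc stood at -2.96, -2.85 and -3.15. Higher calls were 42.1% of the calls for liver minus brain, and 24.5% and 16.0% under the other scalings. For testis minus liver they were 66.0%, 76.2% and 78.6%.

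The remaining members were near the limit of detection. Igha had 2 to 14 reads per liver library, at most 8 per brain library, and 1 read over all 6 testis libraries. Ighg1 had at most 3 reads in any library and Ighg2b at most 7, the latter in liver KO 5 and KO 6. Ighg3, which encodes IgG3, had 0 reads in all 6 liver libraries, 2 over the 6 brain libraries and 2 to 6 in each testis library. The lambda genes Iglc1 and Iglc2 had at most 5 and 9 reads, both maxima in liver KO libraries. Ighd, the IgD gene that naive B cells transcribe along with Ighm, is not a member and had 3 to 26 reads in liver, highest in WT 3 and KO 6.

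The ratio of summed heavy to light chain constant levels set brain apart from liver and testis. In liver the heavy chain sum was 0.522 to 1.00 times the light chain sum in FPKM, with the 3 WT libraries at 0.917 to 1.00 and the KO libraries at 0.522 to 0.649. In brain the ratio ran from 4.48 to 32.0, and in testis from 1.03 to 3.59. Every brain library had a higher ratio than every liver and testis library, while the highest liver ratio lay close to the lowest in testis. The ratios rest on 4 to 10 light chain reads per brain library and 3 to 19 per testis library. Brain held 1717 heavy chain constant reads against 47 light chain constant reads, of which 44 were Igkc. Kappa made up 79.5% of light chain reads in liver (174 of 219, exact 95% interval 73.5 to 84.6) and 57.8% in testis (37 of 64, 44.8 to 70.1).

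**Figure D2:**
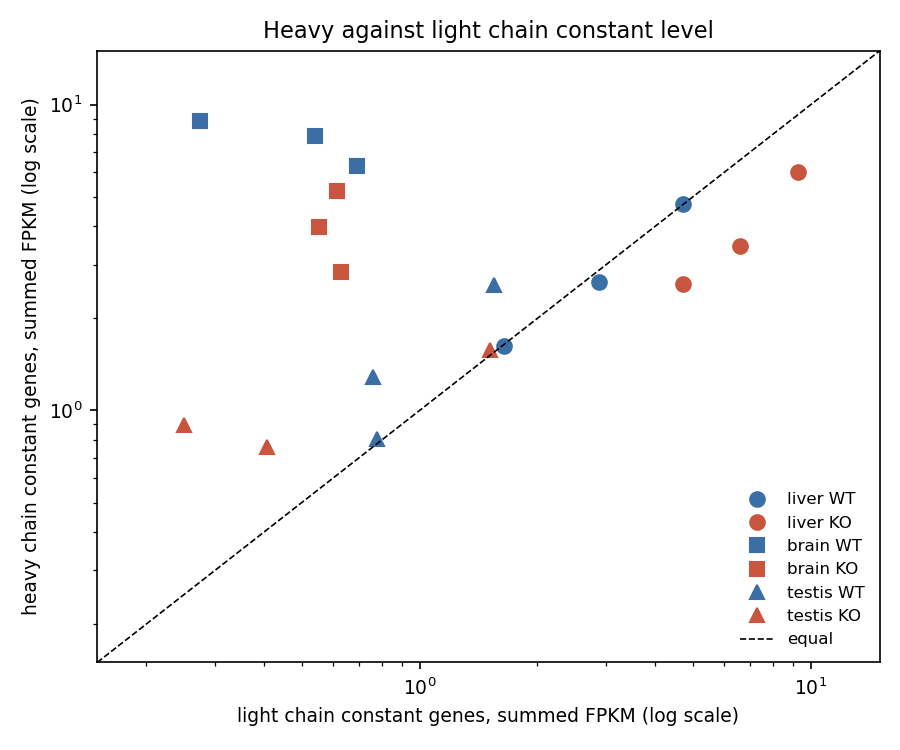
Summed FPKM of heavy chain constant genes against light chain constant genes for each of 18 libraries, both axes logarithmic, with a dashed line where the sums are equal. Brain libraries (squares) lie 4.48 to 32.0 times above the line, and liver libraries (circles) lie on or below it.

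Variable segments are the gene pieces that, once joined, form the antigen-binding end of each chain, and a transcript of a complete antibody chain carries one beside its constant part. Reads on Ighv, Igkv and Iglv segments came to 6, 18 and 13 in WT liver and 20, 44 and 60 in KO liver. In brain they came to only 2 to 13 per library, beside 140 to 427 heavy chain constant reads. The heavy chain segments alone had 8 reads over the 6 brain libraries. In liver, 29 of 185 Ighv segments and 33 of 160 Igkv segments had a read, and the most abundant was Ighv1-56 with 21 reads.

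Testis differed from both. Its libraries held 344 to 433 variable segment reads beside 3 to 19 light chain constant reads, in WT and KO alike. Ighv1-84 supplied 54.1% of the 1237 Ighv reads and Igkv4-63 supplied 51.4% of the 1127 Igkv reads. Both were present in every library, with Ighv1-84 at 89, 116 and 168 reads in WT and 73, 96 and 127 in KO, and Igkv4-63 at 107, 102 and 52 in WT and 107, 105 and 106 in KO. Groups overlapped for both, and neither passed the KO minus WT test (log2 -0.28 and 0.39, limma adjusted p = 0.871 for each). Without this pair, 164 to 215 variable segment reads remained per testis library. The next most abundant were Ighv1-82 with 220 reads, Igkv3-3 with 167 and Ighv1-83, annotated as a pseudogene, with 93.

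The reference sequences of the 2 leading testis segments are given because their reads lacked a matching amount of constant gene reads. Ighv1-84 lies on the minus strand and the stretch is chr12:115980887-115981006, and Igkv4-63 lies on the minus strand with chr6:69378110-69378229.
Ighv1-84: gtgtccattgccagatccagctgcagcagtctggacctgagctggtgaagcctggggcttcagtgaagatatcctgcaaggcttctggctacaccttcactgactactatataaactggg
Igkv4-63: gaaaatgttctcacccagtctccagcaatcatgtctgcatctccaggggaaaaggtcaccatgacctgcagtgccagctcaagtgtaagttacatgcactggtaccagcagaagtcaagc
Of the 50-base stretches of Ighv1-84, 58.3% also occurred in other segments, mostly Ighv1-75, and for Igkv4-63 the share was 25.1%. The assignment of reads among related segments is therefore uncertain.

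**Figure D3:**
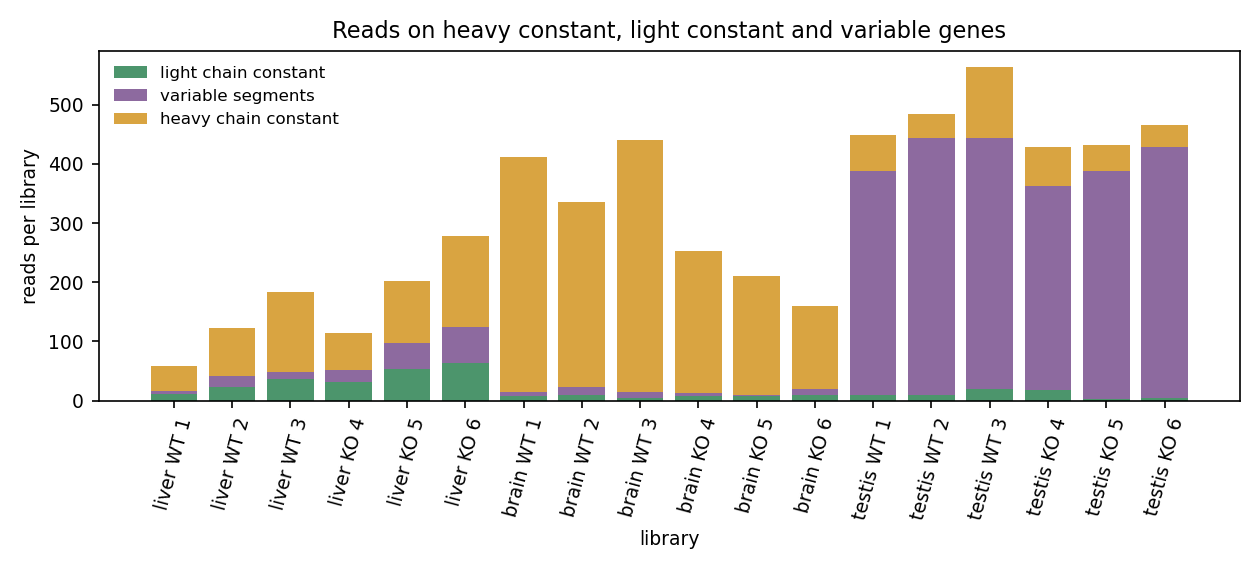
Reads per library on light chain constant genes, variable segments and heavy chain constant genes, stacked for the 18 libraries. Heavy chain constant reads fill most of each brain bar, and variable segments (344 to 433 reads) fill most of each testis bar.

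In brain, Ighm and Ighg2c were lower in every KO library than in any WT library, but neither passed the test. Ighm was at 6.74, 5.16 and 7.03 FPKM in WT and 4.75, 3.53 and 2.44 in KO (353, 264 and 362 reads against 224, 181 and 124). The KO mean was 1.77-fold lower, 3.57 ± 1.157 against 6.31 ± 1.01 FPKM (SD, n = 3 each). The limma log2 change was -0.84 ± 0.23 with an adjusted p of 0.833, and adjusted p stayed between 0.400 and 1.00 over the alternatives run.

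Ighg2c was at 1.06, 0.917 and 1.74 FPKM in WT brain and 0.483, 0.305 and 0.280 in KO brain (39, 33 and 63 reads against 16, 11 and 10). The groups did not overlap, and the KO mean was 3.48-fold lower, 0.356 ± 0.111 against 1.24 ± 0.440 FPKM. The log2 change was -1.53 ± 0.26 with a limma adjusted p of 0.275, and 0.259 to 0.783 over the alternatives. Only these 2 of the 10 members had enough reads to be tested in brain. Both had an unadjusted limma p under 0.05, as did 800 of all 17922 genes tested. Neither was called, nor was either under limma voom, in a comparison where 0.0837% of all tested genes were called and 4.09% had every KO library below every WT library.

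Igkc did not share this pattern: it had 8, 10 and 4 reads in WT brain and 7, 8 and 7 in KO brain. Jchain had 3, 7 and 8 against 4, 4 and 12. Both fell short of the 10 reads in 3 libraries required for testing.

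Brain libraries also differed in genes of brain regions, as lists added after the data were seen show. All 8 olfactory bulb genes tested were lower in KO, with a median log2 change of -1.24 against 0.01 over all genes, and none was called. Their summed level was 24.6, 30.1 and 40.8 FPKM in WT and 21.8, 10.5 and 16.8 in KO. The summed level of 6 cerebellar genes was 175, 168 and 109 FPKM in WT and 213, 185 and 175 in KO. In the other region lists added, all 5 striatum genes and 3 of 4 cerebral cortex genes were lower in KO (median log2 change -0.05 and -0.09). The 2 hindbrain and spinal cord genes were higher (1.37), on sums of 0 to 1.63 FPKM in WT and 0.635 to 1.62 in KO. The olfactory bulb sum, like Ighg2c, was highest in WT 3, and all 3 KO libraries were below all WT libraries in both. Over the 6 libraries, r with Ighg2c ran from 0.61 for Eomes, a transcription factor gene, to 0.93 for Th, the dopamine synthesis enzyme, among the 8 olfactory bulb genes. Among the 6 cerebellar genes it ran from -0.87 for Fat2, a granule cell cadherin, to -0.64 for Pcp2, a Purkinje cell gene. Ighm and Ighg2c had r = 0.92 with each other. These r describe 6 libraries that differ in genotype as well. Hepatocyte genes, out of place in brain, summed to 12.7 FPKM in WT 3, 5.53 in KO 5 and 7.06 in KO 6, and at most 0.728 in the other 3 libraries. Male germ cell genes summed to 0.887 to 4.66 FPKM in WT and 3.95 to 9.85 in KO brain. Of these, 2 were tested, Ddx4 and Prm1, with log2 changes of 2.35 ± 0.33 and 0.80 ± 0.83 SE, and neither was called by limma. Antigen presentation genes summed to 7.60 to 9.38 FPKM in WT and 10.3 to 10.6 in KO brain. All 5 of them that were tested were higher in KO and none was called. The part of region content or of these transcripts in the lower Ighm and Ighg2c levels was not tested. Without brain WT 3 the log2 change was -0.76 for Ighm and -1.28 for Ighg2c.

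**Figure D4:**
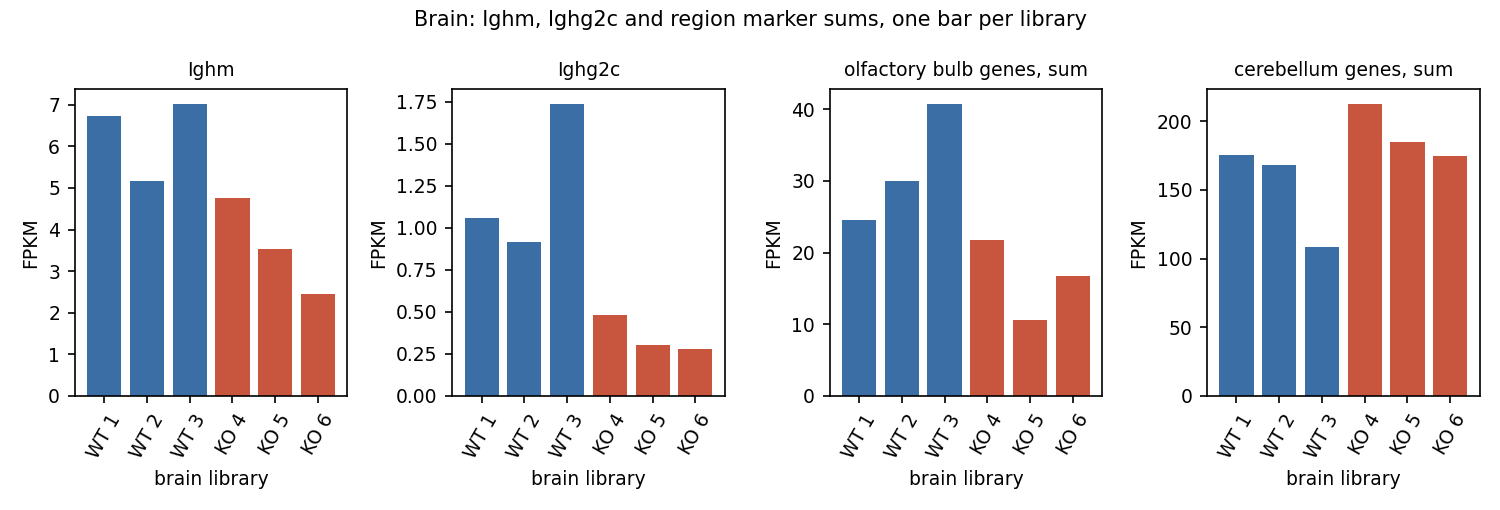
FPKM of Ighm and Ighg2c and summed FPKM of 8 olfactory bulb and 6 cerebellar genes in the 6 brain libraries, 1 bar each, WT in blue and KO in red. KO bars are below all WT bars for Ighm, Ighg2c and the olfactory bulb sum; the cerebellar sum is lowest in WT 3, at 109 FPKM.

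In liver, Igkc was higher in every KO library than in any WT library, and again did not pass the test. It was at 0.850, 2.58 and 3.41 FPKM in WT and 4.19, 5.33 and 6.97 in KO (6, 21 and 27 reads against 28, 44 and 48). The KO mean was 2.41-fold higher, 5.50 ± 1.40 against 2.28 ± 1.30 FPKM (SD, n = 3 each). The limma log2 change was 1.40 ± 0.47 with an adjusted p of 1.00, and it was 0.84 without WT 1, which had the fewest Igkc reads.

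Jchain was at 0.210, 0.416 and 0.187 FPKM in WT liver and 0.949, 0.359 and 0.767 in KO liver, and the groups overlapped through KO 5. Its log2 change was 1.06 ± 0.38 (limma adjusted p = 1.00). Ighm was at 1.28, 1.91 and 3.45 FPKM in WT and 2.11, 2.87 and 4.59 in KO, with overlapping groups and a log2 change of 0.55 ± 0.40 (adjusted p = 1.00). Of the 3 members with enough reads to be tested, 0 were called by limma or limma voom, where limma called 0.0212% of all tested genes. Igkc and Jchain, 2 of the 3, had an unadjusted limma p under 0.05, as did 618 of all 14124 genes tested. Among all tested genes, 4.94% had no KO library at or below a WT library, and Igkc was the 1 member of 3 to do so.

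**Figure D5:**
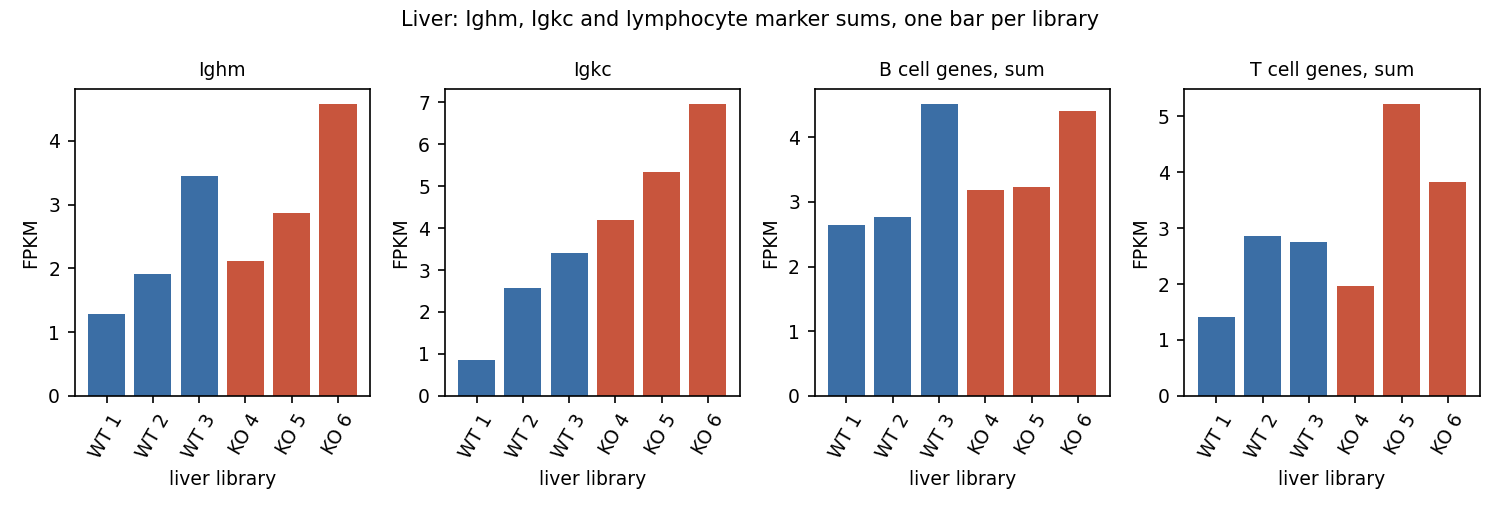
FPKM of Ighm and Igkc and summed FPKM of 15 B cell and 11 T cell genes in the 6 liver libraries, 1 bar each, WT in blue and KO in red. Igkc bars of KO are all above those of WT, while the B cell sum is highest in WT 3 (4.52 FPKM) and overlaps between genotypes.

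B cell genes did not separate the genotypes in liver. The summed level of 15 such genes was 2.64, 2.76 and 4.52 FPKM in WT and 3.19, 3.23 and 4.41 in KO, and none of the 4 that could be tested was called. Cd79b, a signalling chain of the B cell receptor, had 6, 8 and 27 reads in WT and 8, 2 and 15 in KO. Cd22, an inhibitory B cell receptor, had 4, 10 and 19 against 14, 16 and 32. In WT 3, which was also highest in Ighd, adipose genes summed to 5.02 FPKM, against 0.213 to 2.16 in the other 5 liver libraries. Male germ cell genes summed to 0, 0 and 0.477 FPKM in WT and 0.634, 4.85 and 5.50 in KO. Ddx4, the only 1 of them tested in liver, had a log2 change of 2.72 ± 0.30 SE (limma adjusted p = 0.117). Antigen presentation genes summed to 81.3 to 116 FPKM in WT and 129 to 230 in KO. All 6 of them that were tested were higher in KO, as were 7089 of all 14124 genes tested, and none was called. Their median log2 change was 0.70, against 0.00 over all genes. T cell genes summed to 1.42 to 2.86 FPKM in WT and 1.96 to 5.23 in KO. The part of these cells or transcripts in the Igkc level was not tested. More cells of a type and more RNA per cell cannot be told apart in whole tissue.

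Plasma cell content could not be read from most of its marker list. Of 14 genes, those with the highest levels in liver, Xbp1, Sdc1 and Creld2, had genotype means of 77.8 to 103 FPKM, and hepatocytes transcribe the secretory regulator Xbp1 and the proteoglycan gene Sdc1 themselves. Tnfrsf17, the plasma cell survival receptor BCMA, was detected by no read in any liver library, and by 5 or fewer per brain library and 7 or fewer per testis library. Mzb1, a chaperone of B cells and plasma cells, had 32 to 46 reads per testis library, 3 to 13 per liver library and 2 to 5 per brain library.

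In testis none of the members separated the genotypes. Ighm was at 1.17, 0.700 and 2.32 FPKM in WT and 1.22, 0.737 and 0.623 in KO, with a log2 change of -0.54 ± 0.42 (limma adjusted p = 0.871). The highest library was WT 3, and without it the change was -0.12. Jchain was at 0.380, 0.463 and 0.634 FPKM in WT and 0.404, 0.316 and 0.580 in KO, with a log2 change of -0.16 ± 0.25 (adjusted p = 0.905), and 0.01 without WT 3. Of these 2 members, the only ones of 10 with enough reads, 0 were called by limma or limma voom and 0 had an unadjusted limma p under 0.05. Among all 22341 genes tested, 0.00448% were called, 922 had such an unadjusted p and 11.9% did not overlap between genotypes.

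Testis also gave reads on B cell and plasma cell genes without matching light chain reads. Pax5, the B lineage transcription factor, had 328 to 629 reads per testis library against 0 to 10 in liver, Derl3, an endoplasmic reticulum protein gene, had 691 to 791, and Slamf7, a receptor of plasma cells and other lymphocytes, had 688 to 859. Cd79a, the other receptor signalling chain, had 1 to 15, and Igkc 1 to 13. The sum of the 15 B cell genes was 7.69 to 10.5 FPKM in testis, lowest in WT 3, where Ighm was highest.

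Receptors and carriers of immunoglobulin were assessed as a list of 9 genes. None of the 8 tested in liver, 5 in brain or 6 in testis was called between genotypes by limma, with median log2 changes of 0.01, 0.03 and -0.21 against 0.00, 0.01 and 0.03 over all genes. Pigr, which carries polymeric IgA and IgM across epithelia, was at 456 FPKM in WT and 506 in KO liver (means of 3). Fcgrt, which protects IgG from degradation, was at 115 and 122. Of 7 genes for B cell and plasma cell factors, 2, 4 and 4 were tested in liver, brain and testis and none was called.

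The genes closest to Igkc across libraries were identified by Pearson r of log2 levels. In the 6 liver libraries they were AC123708.2, Ptpn22, Gm16185, Npm1 and P3h4, with r of 0.989 to 1.00 among 14124 genes. Over all 18 libraries, after tissue means were removed, they were Tmsb10, Ptpn22, Gm9794, Cstb and Spi1, with r of 0.80 to 0.86 among 24983 genes. Ptpn22, a lymphocyte phosphatase gene, was in both lists, which share the liver libraries. In brain they were Ubxn2a, Nsd3, Dek, Efnb1 and Kif21a, and in testis Actr2, 2410006H16Rik, Chrac1, Gm10941 and Slx1b. Those rest on 4 to 10 Igkc reads in brain and 1 to 13 in testis. With ranks in place of r, 0, 1 and 4 of the 5 genes stayed among the closest in brain, testis and all libraries. In liver all 5 had a rank correlation of 1, the maximum. Other genes tied with them there, so that only 1 was among the 5 kept.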

How the data were processed

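Libraries were made from poly(A)-selected RNA with a random-primed Illumina kit, per the labels' protocols. The submitters' processing notes name HISAT2 2.0.5, featureCounts 1.5.0-p3, DESeq2 1.16.1 and build mm10, with no strand setting or treatment of reads that match several places. The authors deposited FPKM values per gene for each library. Every value was a whole multiple of 1 read's worth within 0.01 reads, so reads were recovered for description and filtering. The implied library sizes differ from the totals by a factor of 0.806 to 1.52, depending on tissue.

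Genes with at least 10 reads in 3 of 6 libraries entered limma 3.58.1, run in R 4.3.3, as log2(FPKM + 0.1), within tissue for KO minus WT and between WT tissues, with Benjamini-Hochberg adjustment over all tested genes and a threshold of 0.05. Fold changes of low genes are understated on this scale. The procedure was tested on simulated data in which only genes with more reads than most members were given a change. That run therefore cannot show how often a change in a member with few reads would be found. Shares have exact Clopper-Pearson intervals, and 3 reads per library served as the floor. Named were the members, the other constant genes, the leading genes of each marker list, the 5 leading variable segments per tissue, the 5 genes closest to Igkc, and Pcgf6; single marker genes outside that rule (among them Cd79b, Cd22, Cd79a, Tnfrsf17, Mzb1, Eomes, Th, Fat2 and Pcp2) were named after their values were seen. The members and marker lists were chosen with earlier results of these data known, and the brain region lists after seeing the data, so no test here is independent support. Replicate numbers paired WT testis with liver: same-numbered libraries deviated together over 12119 genes, with r of 0.118, 0.107 and 0.214. For WT liver with brain r was 0.0857, 0.0377 and 0.0875, and for WT testis with brain 0.1145, 0.0134 and -0.0161. In KO, same-numbered libraries had r of 0.109 to 0.222 over all tissue pairs, and unlike-numbered ones -0.152 to -0.0249. Sequences come from GENCODE M21 and its genome.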

Additional observations from a re-analysis of the deposited data

How the results depend on the processing

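Each comparison was recomputed with other pseudocounts, filters and scalings, limma voom, and each library left out. Called members stayed at 0 in all 3 KO minus WT comparisons under every alternative run. All genes called moved from 3 to 0 in liver and from 15 to 5 in brain when 10 reads were required in all libraries, and ran from 2 to 5 and 8 to 12 with 1 library left out. In testis the count of 1 became 0 without a filter and 2 with the stricter filter, a fixed sum or voom, and ran from 0 to 3 with 1 library left out.

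Between WT testis and liver, 2 of 3 tested members were called. The count became 1 with a pseudocount of 0.01, either other scaling, voom or the replicate block, and 0 to 1 with 1 library left out. It was 4 of 10 without a filter, where 23251 of all 37236 genes were called, and 0 of 1 with the stricter filter. For testis minus brain and liver minus brain, 3 of 3 tested members were called, 5 of 10 without a filter and 1 of 1 with the stricter one. Without a filter, 23296 of 38698 and 17696 of 31628 genes were called in all. The stricter filter lowered all genes called in the 3 comparisons to 9985 of 12119, 12206 of 14802 and 9682 of 11982. With 1 library left out, called members ranged from 3 to 3 for testis minus brain and 2 to 3 for liver minus brain. The replicate block gave 3 members in each of these last 2 comparisons, with 19496 and 15118 genes called in all. Same-numbered WT libraries deviated together weakly for liver with brain (r of 0.0857, 0.0377 and 0.0875). For testis with brain they did not do so throughout (0.1145, 0.0134 and -0.0161). No paired analysis was possible for KO minus WT because the genotypes share no replicate numbers.

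Reversed values were Ighm for testis minus liver, 0.0245 by library total and 0.220 at a fixed sum, and Jchain for KO minus WT in testis, 0.0065 without WT 3 and 0.00464 without KO 5 (range -0.35 to 0.0065 with 1 library left out). Of the 5 genes closest to Igkc, 3, 0, 0 and 4 stayed without the highest library, and 1, 0, 1 and 4 by rank. In liver the count of 1 by rank reflects ties, as all 5 genes had a rank correlation of 1. The cause of the other changes was not tested. Medians over 6 libraries of the Ighm and kappa shares moved by less than the SD of those 6 between reads and FPKM, but the mean Ighm share moved by more than the SD of 3 in WT brain (86.0 to 82.3%) and KO testis (78.5 to 80.6%). Most members had under 10 reads per library and were tested only without the filter. There Iglc1 was called for liver and for testis minus brain, and Ighg3 for testis minus liver and minus brain. Igha and Ighg2c were called for testis minus liver, and Jchain for liver minus brain. Those calls rest on at most 16 reads per WT library, in a setting whose counts over all genes are given above.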
